A study of Mus musculus with 4 samples.

Results

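Smooth and striated muscle actins, transgelins, calponins and tropomyosins were followed in mouse embryonic stem cells with and without Suz12, as 10 genes of the 18193 with a symbol of their own on the array: Acta1, Acta2, Actc1, Actg2, Tagln, Tagln2, Cnn1, Cnn2, Tpm1 and Tpm2. Every probe set (the group of short probes that reads 1 transcript) whose only gene symbol in the platform annotation was one of these was taken, which gave 20 probe sets. The genes were chosen from earlier results of these same arrays, in which several of them read lower without Suz12. Their differences between genotypes are therefore given as a description, with no test. Not all 10 are smooth muscle genes: Acta1 is the skeletal and Actc1 the cardiac muscle actin, while Tagln2, Cnn2, Tpm1 and Tpm2 are also used outside muscle.

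The study compared embryonic stem cells, the pluripotent cells of the early embryo, of 2 genotypes on 4 Affymetrix arrays: 2 arrays labelled WT and 2 labelled Suz12KO. Suz12 belongs to the core of Polycomb repressive complex 2, which methylates histone H3 at silent developmental genes. Per the labels' protocols, RNA of 3 clones of each genotype was mixed in equal amounts before hybridisation, so no value belongs to a single clone. The sources used here do not give the knockout allele, the strain or the culture conditions, feeder cells included. Whether the arrays of one genotype were hybridised with different RNA is not said in the labels, so p-values measure the spread between arrays, which may be technical.

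Actin filaments are built from closely related actins that are encoded by separate genes. The muscle forms (Acta1, Actc1, Acta2 in vascular and Actg2 in enteric smooth muscle) are used in contractile fibres, and the cytoplasmic forms Actb and Actg1 in every cell. Tropomyosins wind along the filament and set which partners it binds, and calponins and transgelins are related filament-binding proteins, of which Cnn1 and Tagln mark smooth muscle while Cnn2 and Tagln2 are more widely used. Many of these genes are classical targets of SRF, a factor that binds the CArG box together with coactivators (Myocd, Mrtfa, Mrtfb) that respond to the pool of free actin. TEAD factors, which carry the Hippo effectors YAP and TAZ, also bind muscle promoters.

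Signal is a brightness on a linear scale that had been scaled to the same trimmed mean (500.003) in all arrays. The median signal was 171 to 175 in WT and 191 to 202 in Suz12KO. The 27 control probe sets for the bacterial genes dap, lys, phe, thr and trp, called unused spikes below, reached 141 to 195 at most, depending on the array, and mark the signal that background alone can give. The targeted gene checked the labels: Suz12 signal was 1097 and 1094 in WT and fell to 217 and 369 in Suz12KO (log2 difference -1.89, SE 0.27, limma adjusted p = 0.0021, or 0.0602 when its 6 probe sets were averaged). Markers of embryonic stem cells were present in all arrays, and 11 of the 12 tested were called higher in Suz12KO and 0 lower, among them Nanog (2.04), Fgf4 (1.81) and Esrrb (1.77). The ratio of 3' to 5' signal of Gapdh, a sign of RNA integrity, was 0.756 to 0.807 in WT and 0.871 to 0.889 in Suz12KO, and that of Actb 1.14 to 1.16 in all arrays.

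The sequence before the start of each gene, where SRF and TEAD sites of muscle genes are often found, was read from the RefSeq promoter table (build GRCm38.p6). It held 1 window for each of 8 of the 10 genes, and Actg2 and Tagln were not analysed here for sequence. The 250 bases before the start were searched for the CArG box (a CC, a core of 6 bases that are A or T, and a GG), which reads alike on both strands, allowing at most 1 other base in the core. They were also searched for the TEAD-type motif GGAATG on both strands. Shown are 5 of these windows, those of Acta1, Acta2, Actc1, Cnn1 and Cnn2, 5' to 3' on the gene's strand, with CArG matches in capitals. They lie at chr8:123894776-123895025 (Acta1, minus strand), chr19:34255374-34255623 (Acta2, minus strand), chr2:114052876-114053125 (Actc1, minus strand), chr9:22099003-22099252 (Cnn1, plus strand) and chr10:79988350-79988599 (Cnn2, plus strand).
Acta1: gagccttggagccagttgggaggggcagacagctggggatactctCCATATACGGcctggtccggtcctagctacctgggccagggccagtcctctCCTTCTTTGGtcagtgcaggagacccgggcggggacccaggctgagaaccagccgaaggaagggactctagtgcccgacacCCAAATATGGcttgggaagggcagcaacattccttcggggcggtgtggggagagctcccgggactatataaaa
Acta2: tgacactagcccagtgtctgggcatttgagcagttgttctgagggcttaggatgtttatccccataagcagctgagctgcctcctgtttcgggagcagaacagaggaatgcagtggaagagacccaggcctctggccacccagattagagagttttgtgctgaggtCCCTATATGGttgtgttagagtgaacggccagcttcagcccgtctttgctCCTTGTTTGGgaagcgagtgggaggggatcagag
Actc1: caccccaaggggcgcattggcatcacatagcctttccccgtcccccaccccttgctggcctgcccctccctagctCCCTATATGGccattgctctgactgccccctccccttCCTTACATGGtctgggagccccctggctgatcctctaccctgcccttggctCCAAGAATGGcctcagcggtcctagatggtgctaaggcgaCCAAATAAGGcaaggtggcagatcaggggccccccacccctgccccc
Cnn1: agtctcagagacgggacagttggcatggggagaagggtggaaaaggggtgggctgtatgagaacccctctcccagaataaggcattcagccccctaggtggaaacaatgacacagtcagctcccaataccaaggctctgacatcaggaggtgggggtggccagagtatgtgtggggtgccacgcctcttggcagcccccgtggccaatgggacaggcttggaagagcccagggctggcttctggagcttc
Cnn2: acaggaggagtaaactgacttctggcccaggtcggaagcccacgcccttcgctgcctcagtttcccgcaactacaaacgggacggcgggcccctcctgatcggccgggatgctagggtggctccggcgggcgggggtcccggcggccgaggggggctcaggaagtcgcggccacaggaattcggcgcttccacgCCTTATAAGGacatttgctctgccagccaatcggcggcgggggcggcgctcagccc

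A CArG box with all 6 core bases A or T stood in 3 of the 8 windows, those of Acta1, Actc1 and Cnn2, and in 1.47% of all 32851 windows of this length in the table. With 1 other core base allowed, 4 of the 8 windows held a match, Acta2 being the fourth, against 8.59% of all windows. Actc1 had 4 such matches, Acta1 had 3, Acta2 had 2 and Cnn2 had 1. In these 4 genes the match nearest to the start began 73 bases (Acta1), 34 bases (Acta2), 47 bases (Actc1) and 56 bases (Cnn2) before it. The windows of Cnn1, Tagln2, Tpm1 and Tpm2 held none, which says only that these letters are not in these 250 bases. GGAATG was found on either strand in Acta1, Acta2, Tagln2 and Tpm1, 4 of 8 windows against 12.6% of all, and overlapped no CArG match. CpG content, which marks the promoters that Polycomb complexes typically bind, ranged widely: the ratio of observed to expected CpG was 0.141 in Cnn1, 0.173 in Actc1 and 0.231 in Acta2, below the median of all windows (0.373), and 0.742 in Tpm1 and 0.856 in Cnn2. A match is a description of the sequence and was not tied to the signal by any measurement here.

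**Figure D1:**
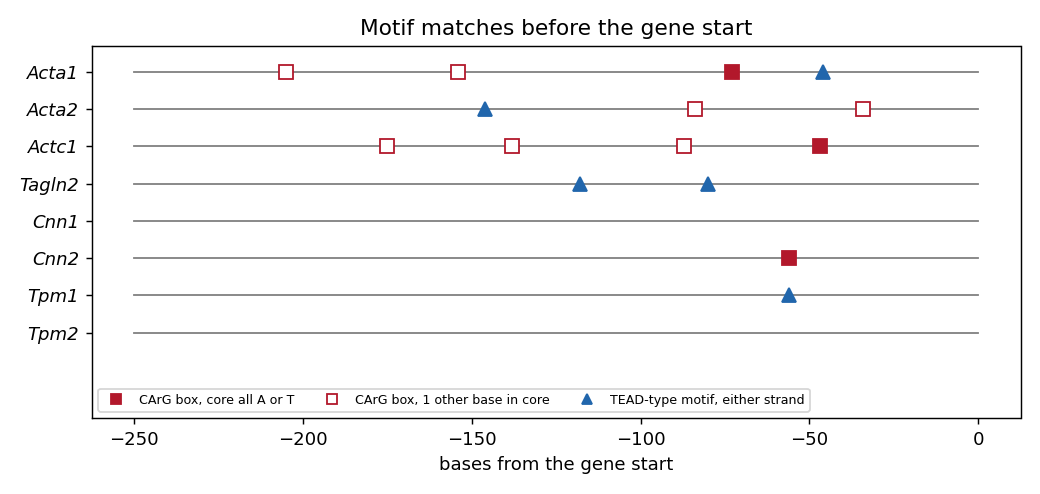
Positions of CArG boxes (squares, filled where all core bases are A or T) and of the TEAD-type motif (triangles) in the 250 bases before the start of 8 genes, in bases from the start. Acta1, Acta2 and Actc1 hold 2 to 4 CArG matches each, Cnn2 holds 1, and Cnn1, Tagln2, Tpm1 and Tpm2 hold none.

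All 10 genes read lower in Suz12KO than in WT by their brightest probe set, which stands for the gene below. In each, both Suz12KO arrays lay below both WT arrays, which was so for 20.5% of the 34945 probe sets with 1 symbol. The genes were chosen on this difference, so nothing is read from the lack of overlap given below. Signal in Suz12KO was between 15.6% (Acta1) and 66.8% (Tagln2) of that in WT, and the median log2 difference of the 10 was -1.89, against 0.04 for all 12735 genes tested. Log2 differences are of signal + 16, which understates changes of dim genes, and 0 means equal signal. In a mixture of cells, fewer cells of a type and less RNA per cell cannot be told apart.

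For the vascular smooth muscle actin Acta2, WT signal was 33742 and 33855, against 6821 and 7422 without Suz12. The means were 33799 ± 80.3 and 7122 ± 425 (SD, n = 2 arrays each), a 4.75-fold lower signal and a log2 difference of -2.25 (SE 0.06). The 2 genotypes lay far apart and the arrays within each were close together.

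Acta1, the skeletal muscle form, had the largest difference of the 10 genes. WT signal was 3558 and 3711, against 389.9 and 744 without Suz12, a log2 difference of -2.72 (SE 0.24). Its Suz12KO arrays disagreed more than those of any other of the 10 genes, so that leaving out one or the other gave a difference of -2.26 or -3.17. The cardiac form Actc1 gave 2012 and 2309 in WT, against 457 and 331 without Suz12 (-2.42, SE 0.19). The genotypes did not overlap for either gene. The log2 difference of Acta2 minus that of Actc1 was 0.18 (SE 0.20), and that of Acta1 minus Actc1 -0.29 (SE 0.31), both within their error. That of Acta2 minus Acta1 was 0.47 (SE 0.25), and 0.05 to 0.89 over the pairings of a Suz12KO with a WT array, which share arrays. Errors were added as if the genes were independent, and none of these gaps was tested.

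Actg2, the enteric smooth muscle actin, had the smallest difference of the 4 muscle actins. Its WT arrays read 677 and 542 and its Suz12KO arrays 361 and 353. The log2 difference was -0.74 (SE 0.25), and that of Acta2 minus that of Actg2 was -1.51 (SE 0.26). All 4 readings lay above the unused spikes (195 at most).

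**Figure D2:**
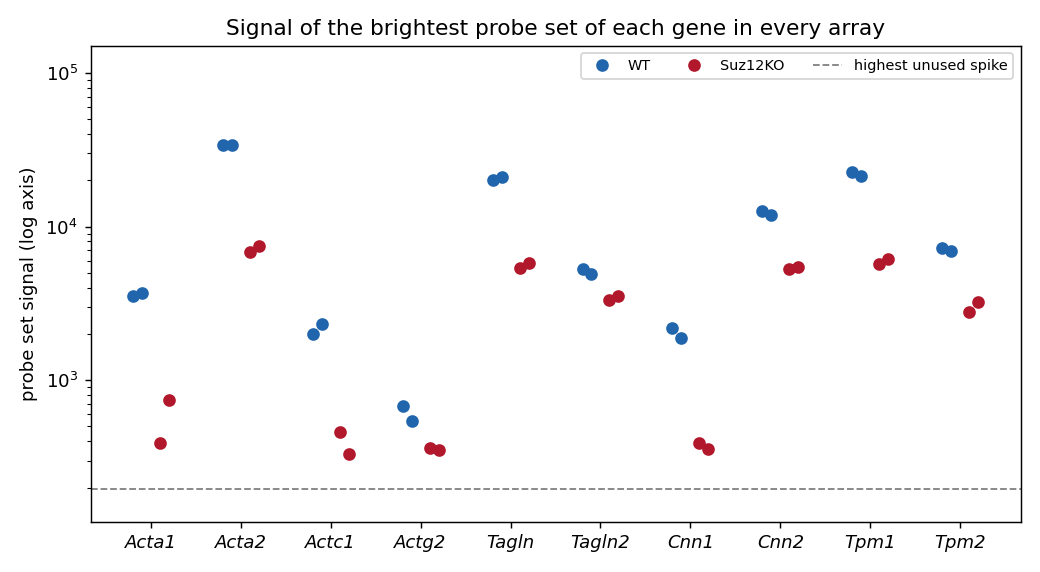
Signal of the brightest probe set of each of the 10 genes, on a log axis, with 1 point for each array (WT blue, Suz12KO red) and the highest unused spike as a dashed line. Both Suz12KO arrays lie below both WT arrays in every gene, and in 20.5% of the 34945 probe sets with 1 symbol. The genes were chosen on this difference. Gaps are widest in Acta1, Actc1, Cnn1 and Acta2 and narrowest in Tagln2 and Actg2.

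Among the transgelins, Tagln (also called SM22 alpha) gave 20226 and 21055 in WT, against 5388 and 5755 without Suz12. The log2 difference was -1.89 (SE 0.06), a 3.70-fold lower signal. Tagln2, its widely expressed relative, gave 5335 and 4926 in WT, against 3329 and 3527 without Suz12, with a log2 difference of -0.58 (SE 0.08). The genotypes did not overlap in either gene. The log2 difference of Tagln minus that of Tagln2 was -1.31 (SE 0.10), and -1.40 to -1.22 over the pairings of a Suz12KO with a WT array.

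The calponins showed the same order, with the smooth muscle form first. Cnn1 gave 2197 and 1893 in WT, against 389 and 358 without Suz12, a log2 difference of -2.40 (SE 0.17). Cnn2 gave 12641 and 11856 in WT, against 5271 and 5479 without Suz12, a log2 difference of -1.19 (SE 0.07). The difference of Cnn1 minus that of Cnn2 was -1.22 (SE 0.18), and the genotypes overlapped in neither gene. Of this pair only the window of Cnn2 held a CArG match, and a relation of matches to the differences was not tested.

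Both tropomyosins were lower, with no overlap between genotypes. The brightest of 4 Tpm1 probe sets gave 22799 and 21282 in WT, against 5686 and 6191 without Suz12, a log2 difference of -1.89 (SE 0.07). Tpm2, the beta tropomyosin, gave 7297 and 6922 in WT, against 2794 and 3242 without Suz12 (-1.24, SE 0.09). The difference of Tpm1 minus that of Tpm2 was -0.65 (SE 0.11).

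Where a gene had several probe sets, those above the unused spikes in all 4 arrays ran the same way but not by the same amount. The 3 further Tpm1 probe sets differed by -1.55 (16427 and 15751 in WT, 5386 and 5615 in Suz12KO), by -1.98 (1843 and 1709, 368 and 522) and by -0.69. The last, at 169.6 and 244 in WT, did not exceed the unused spikes without Suz12. Averaged on the log2 scale it was at least 1.10-fold lower. Its first WT reading alone lay under the highest unused spike of both Suz12KO arrays (195 and 174) and gives no such bound. The other Tpm2 probe sets differed by -1.07 (3082 and 3378 in WT, 1677 and 1400 in Suz12KO), -1.62 (995 and 1026, 299.7 and 335) and -1.06 (549 and 708, 335 and 250.4). These tropomyosin genes yield many splice forms, and the sources used here do not give which forms each probe set reads. A second Tagln2 probe set differed by -0.91 (2333 and 2474 in WT, 1180 and 1374 in Suz12KO).

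For 3 probe sets the signal was near that of the unused spikes. The dimmer Acta2 probe sets gave 178 and 119 in WT against 69.7 and 130 in Suz12KO, and 30.2 and 97.5 against 62.2 and 19.6, and overlapped between genotypes. Only the first of these 8 readings exceeded the highest unused spike of its array. The bright Acta2 probe set carries an s suffix, which marks probes shared by more than 1 transcript. How far it also reads the other actins was not tested. The dimmest Tagln2 probe set gave 40.2 and 7.51 in WT, against 202 and 112 without Suz12, the reverse direction, and only 1 of these readings exceeded the unused spikes of its array. In all, both Suz12KO arrays lay below both WT arrays in 17 of the 20 probe sets, which was so for 20.5% of the 34945 probe sets with 1 symbol, while 2 overlapped and 1 lay higher. The genes were chosen on this difference, so nothing is read from that count.

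**Figure D3:**
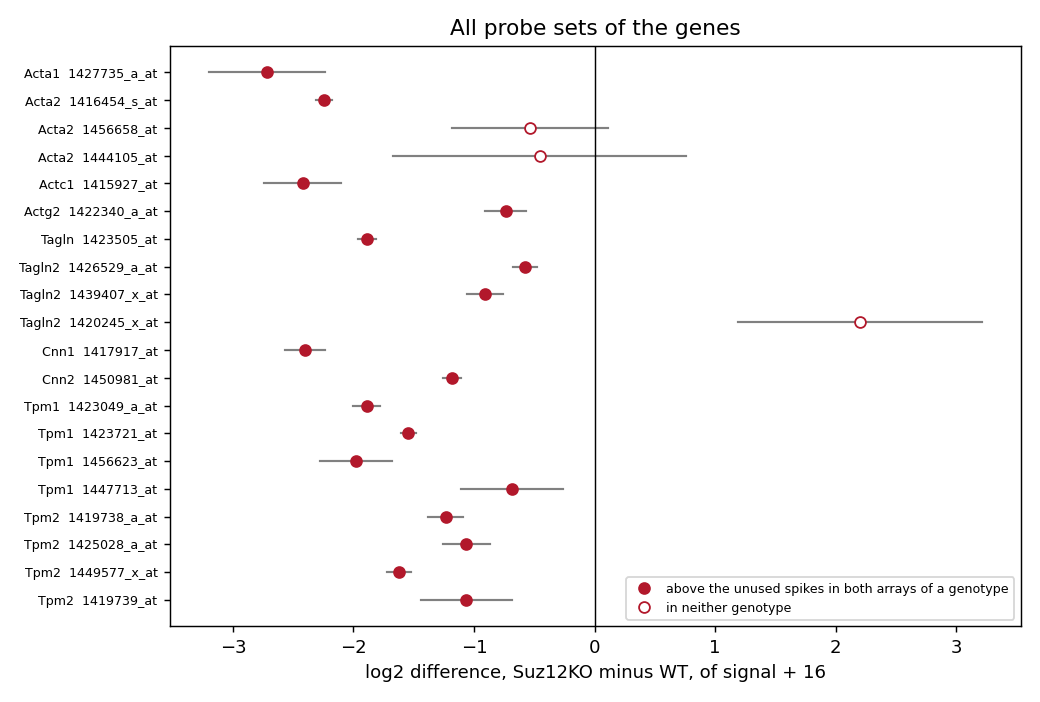
Log2 difference (Suz12KO minus WT, of signal + 16) of all 20 probe sets, with a line from the smallest to the largest difference between any Suz12KO and any WT array. Filled points were above the unused spikes in both arrays of at least 1 genotype, for a Tpm1 probe set in WT only, and all lie left of 0. The 3 open points, of Acta2 and Tagln2, were not, and that of Tagln2 lies right of 0.

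In the fit across all genes (limma, Benjamini-Hochberg adjusted p under 0.05), 9 of the 10 genes were called lower and 0 higher, against 5.50% of all genes called lower and 4.48% called higher. Actg2 was the one without a call, and it gained one after centring (10 of 10), which raised the lower calls over all 12735 genes from 700 to 1243. Averaged probe sets gave 8 of 10, with 306 of all 12735 genes called lower. Probe sets without a suffix gave 5 of the 7 genes that have one, with 518 of all 11614 genes called lower. When limma's variance was not let to follow signal, 0 of the 12735 genes were called (smallest adjusted p 0.0999), which holds for every call given here. This is the difference by which the genes were chosen, and it is given to place them in the fit only.

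Of 6 other measured genes of these families, Tpm4 and Cnn3 fell, 0 rose and 4 did not pass. Tpm4, a cytoskeletal tropomyosin, fell by 1.08 (SE 0.08, limma adjusted p = 4.30e-05), from 10683 and 10460 in WT to 4654 and 5352 in Suz12KO. Cnn3, the calponin of non-muscle cells, fell by 0.56 (SE 0.09, adjusted p = 0.0037), but not when its 6 probe sets were averaged (-0.47, adjusted p = 0.0518). The cytoplasmic actins Actb (57465 and 55701 in WT, 62675 and 60511 in Suz12KO, log2 difference 0.12, limma adjusted p = 0.118) and Actg1 (-0.06, adjusted p = 0.471) did not pass. The Actb difference was -0.05 under quantile normalization and -0.05 after centring, and Actg1 did pass under quantile normalization (-0.21, adjusted p = 0.0086). Tpm3 (-0.14, adjusted p = 0.150) passed after centring only (-0.31, adjusted p = 0.0182). Tagln3, a neuronal form, lay near the unused spikes (177 and 206 in WT, 124 and 209.5 in Suz12KO), which it exceeded on 3 of 4 arrays. It did not pass (-0.22, limma adjusted p = 0.853).

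Set against these relatives, the log2 difference of Acta2 minus that of Actg1 was -2.19 (SE 0.07), and minus that of Actb -2.37 (SE 0.07). That of Tpm1 minus Tpm3 was -1.75 (SE 0.09) and minus Tpm4 -0.81 (SE 0.10), and that of Tpm2 minus Tpm4 was -0.15 (SE 0.12), little more than its error. That of Cnn2 minus Cnn3 was -0.62 (SE 0.11). These gaps are between log2 differences of single probe sets, with errors added as if the genes were independent, and were not tested because one gene of each pair was chosen on the comparison.

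**Figure D4:**
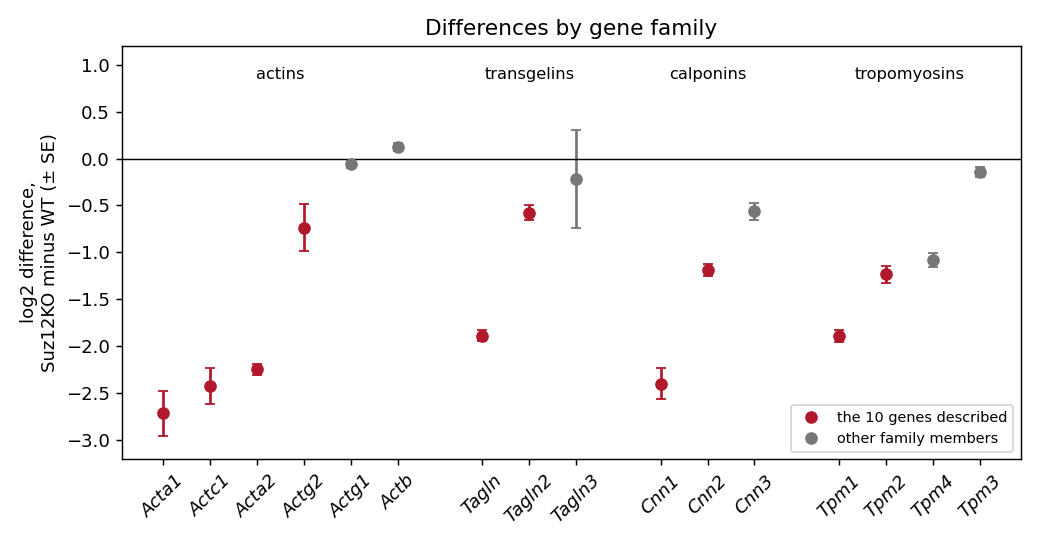
Log2 difference (Suz12KO minus WT) with its limma standard error for the genes of each family, red for the 10 genes described and grey for the other family members. Acta1, Actc1, Acta2 and Cnn1 lie below -2, Tagln and Tpm1 at -1.89, and Actb, Actg1 and Tpm3 near 0.

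Other parts of the smooth muscle contractile apparatus moved in part. The list had 13 tested genes (median -0.27), of which 4 were called lower, 1 higher and 8 neither. The largest falls were those of Cald1 (caldesmon, an inhibitor of actomyosin, -1.65, SE 0.10), the LIM protein Csrp1 (-1.44, SE 0.08) and Pdlim7 (-1.33, SE 0.12), with limma adjusted p of 1.69e-05, 1.01e-05 and 1.55e-04. The Cald1 call was lost when its probe sets were averaged (-0.48, adjusted p = 0.299), 2 of which did not exceed the unused spikes in WT and pointed up. Another Pdlim7 probe set differed by -1.21. The remaining Pdlim7 probe set, above the unused spikes in all arrays, differed by only -0.06 (1258 and 1309 in WT, 1346 and 1118 in Suz12KO). Averaged, Pdlim7 differed by -0.87 (limma adjusted p = 0.0041). Des, the muscle intermediate filament desmin, rose by 1.40 (SE 0.36, adjusted p = 0.0391), from 188 and 150.4 in WT, of which only the first exceeded the unused spikes of its array, to 426 and 521 in Suz12KO. That call was lost when any single array was left out (adjusted p 0.0632 to 0.152), after centring (0.0534), without a filter on dim genes (0.0877) and with averaged probe sets (0.398).

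The genes that define differentiated smooth muscle were mostly not measurable. Of 5 such markers, the smooth muscle myosin heavy chain Myh11, Lmod1 and the coactivator Myocd did not exceed the unused spikes in any of the 4 arrays, with no reading above 99.2. The others were Des, given above, and Smtn. Smtn, which encodes smoothelin, gave 735 and 998 in WT, against 648 and 453 without Suz12, and did not pass (log2 difference -0.65, limma adjusted p = 0.139).

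Other striated muscle genes, the setting in which Acta1 and Actc1 are best known, were mostly dim. Of 27 on the array, 11 were bright enough to be tested, and limma called 0 (0 also at an unadjusted p under 0.05), with a median of 0.05. The brightest were Ckm, the muscle creatine kinase (463 and 381 in WT, 575 and 426 in Suz12KO), and the myosin light chain Myl3 (389 and 614, 448 and 571), with limma adjusted p of 0.674 and 0.948. The other Ckm probe set read 73.3 and 78.9 in WT, within the unused spikes, and 303 and 331 in Suz12KO, above them. Averaged, Ckm differed by 1.04 (limma adjusted p = 0.0956). The log2 difference of Myl3 was 0.05, and it turned to -0.12 after centring. Without Suz12KO replicate 1 a single gene of the list was called lower.

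Of 15 other known SRF targets tested, 9 fell and 0 rose, with a median of -0.72 against 0.04 for all genes. Tgfb1i1, the focal adhesion coactivator also known as Hic-5, fell by 1.35 (SE 0.17), the focal adhesion protein Zyx by 1.08 (SE 0.12) and Vcl, which encodes vinculin, by 1.06 (SE 0.06), with limma adjusted p of 9.75e-04, 4.13e-04 and 1.28e-05. The Vcl arrays of a genotype were close (10898 and 11144 in WT, 5232 and 5296 in Suz12KO). The list was set up with earlier results of these arrays known, so its count is not independent evidence.

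Among the factors that act on these genes, Tgfb2 fell and Klf4 rose most. Of 20 regulators tested, 5 were called lower, 1 higher and 14 neither (median -0.26). Srf gave 1477 and 1454 in WT, against 1276 and 1186 without Suz12 (log2 difference -0.25, limma adjusted p = 0.272). Its coactivators Mrtfa (-0.50, adjusted p = 0.0731) and Mrtfb (-0.05, adjusted p = 0.904) did not pass, but Mrtfa did after centring (-0.66, adjusted p = 0.0184), and Mrtfb changed sign with 1 array left out (0.068). The ligand Tgfb2, of the family that induces smooth muscle genes, fell by 2.45 (SE 0.20, adjusted p = 9.13e-05), from 1728 and 1540 to 251 and 323. The other Tgfb2 probe sets also read lower: the log2 difference was -1.63 and -1.78 in a pair of them, each with 1 Suz12KO array under the unused spikes, while the remaining one did not exceed the spikes in either Suz12KO array and its size is not given. Wwtr1, which encodes TAZ, fell by 0.85 (SE 0.12, adjusted p = 0.0021) and the TEAD factor Tead3 by 0.93 (SE 0.22, adjusted p = 0.0260), whose call was lost without either WT array and without Suz12KO replicate 1 (adjusted p 0.0559 to 0.191). Klf4, a pluripotency factor that also represses smooth muscle genes, rose by 2.03 (SE 0.12, adjusted p = 1.28e-05), from 750.5 and 842 to 3247 and 3330.

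**Figure D5:**
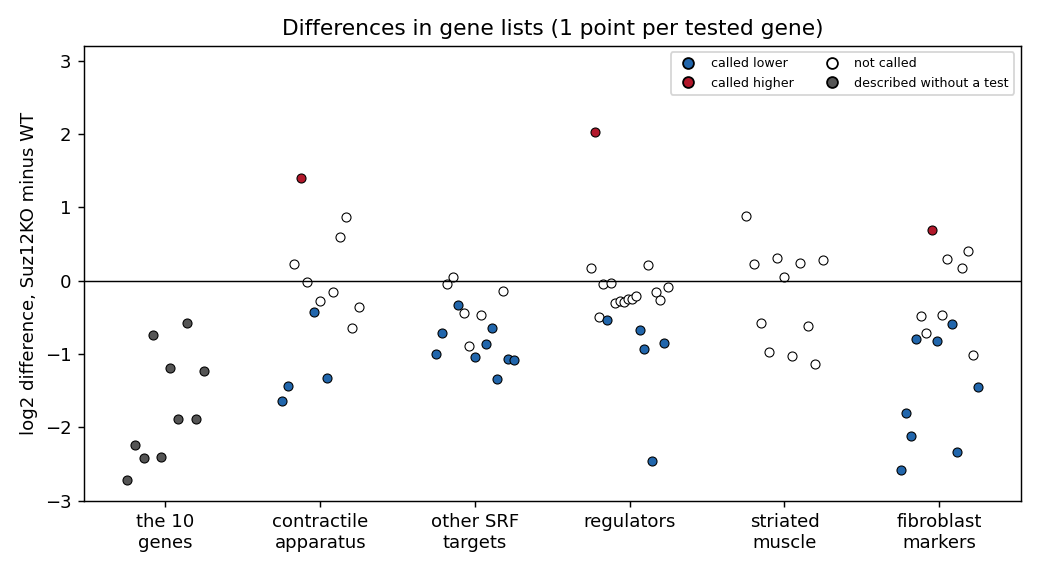
Log2 difference (Suz12KO minus WT) of each tested gene, with the 10 genes in grey and 5 lists coloured by call (blue lower, red higher, white not called). The other SRF targets hold 9 lower calls, the contractile apparatus 4, the regulators 5, the striated muscle genes 0 and the fibroblast markers 8.

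Fibroblasts, which can grow beside embryonic stem cells and make smooth muscle actin when activated, were followed through 23 marker genes. Of 16 bright enough to be tested, 8 fell and 1 rose, with a median of -0.76. The summed signal of the measured markers was 73156 to 73348 in WT and 34704 to 35368 in Suz12KO. Of that sum 84.2% to 86.8% came from 4 genes that many other cells also express, Vim, Sparc, Fn1 and Thbs1. Col1a1 (-2.58), the matrix protein Thbs1 (-2.34) and Col3a1 (-2.12) fell most, with limma adjusted p of 1.01e-05, 1.38e-06 and 0.0019. The Col3a1 call was lost when its probe sets were averaged (-1.37) or only the unsuffixed one was used, which exceeded the unused spikes on 1 of 4 arrays. Col6a2 rose by 0.70 (limma adjusted p = 0.0498) and lost its call under most alternatives. Its other probe set, above the unused spikes in all arrays, read lower instead (533 and 554 in WT, 290 and 425 in Suz12KO, log2 difference -0.60). Of 8 defining markers, Col1a1, Col1a2 (-1.80, limma adjusted p = 9.48e-04) and Col3a1 exceeded the unused spikes in both WT arrays and were called lower. Thy1 was not called, and Dcn, Lum, Postn and Pdgfrb did not exceed the unused spikes in any array, WT included (at most 193). What part fibroblasts have in the signal of the actin and calponin genes was not tested. Of 7 primitive endoderm markers tested, limma called 0 (3 at an unadjusted p under 0.05), and 4 lay below 0. The brightest, Lamb1 and Dab2, differed by -0.32 and -0.34, the latter 0.028 without Suz12KO replicate 2 and -0.70 without Suz12KO replicate 1. Sox17 read higher (0.80), as did Sox7 (41.8 and 97.8 in WT, 278 and 222 in Suz12KO). A Gata4 probe set also read higher (43.9 and 32.3, 345 and 357), while the probe set used for Gata4 differed by 0.13. Amn read lower (203 and 268, 44.0 and 108). The WT readings of Sox7 and of the former Gata4 probe set, and the Suz12KO readings of Amn, did not exceed the unused spikes.

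The genes whose pattern over the 4 arrays came closest to that of Acta2, by the Euclidean distance of log2 values centred on each gene's mean, were Sox11, Thbs1, Gbp2b, Cav1 and Dusp4. With a distance of 0.053, Sox11, a transcription factor of progenitor cells, gave 2420 and 2319 in WT, against 457 and 502 without Suz12. Cav1, the coat protein of caveolae, gave 1576 and 1710 in WT, against 372 and 367 without Suz12 (distance 0.189). Among the other 9 genes, Cnn1 (0.276), Tagln (0.361), Tpm1 (0.363) and Actc1 (0.460) were nearest to Acta2, and Actg2 (1.53) and Tagln2 (1.67) farthest. With 4 arrays of 2 genotypes such a distance mainly compares the sizes of the genotype differences.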

How the data were processed

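Messenger RNA was measured in 2 WT and 2 Suz12KO samples, grouped by title, on Affymetrix arrays, per the labels. Each deposited table lists 45101 probe sets with their intensity, on a linear scale. Equal trimmed means (500.003, without the lowest and highest 2%) show that the authors' deposited intensity was scaled by array. The sources used here do not give the summarising software. Such scaling hides any change that most genes share. The number of arrays limits the precision.

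Of the probe sets, 932 carried several symbols and 9211 none here. These and 64 controls were left out. Values were taken as log2(signal + 16), the probe set with the highest mean stood for its gene (18193 in all), and those under the 30th percentile of mean signal were dropped. Suz12KO was compared with WT over 12735 genes in limma 3.58.1 (R 4.3.3; eBayes with trend, two-sided, Benjamini-Hochberg, threshold 0.05; prior degrees of freedom 7.16), checked on simulated data. A change is given as a bound where neither array of one genotype exceeded its highest unused spike (27 in all). Members, lists and tests were chosen with earlier results of these data known. Named beside the 10 genes are Suz12, other family members, Srf and its coactivators, the 3 largest rises and falls past the test per list (the 2 brightest where none passed) and the 5 genes nearest to Acta2. Motifs were searched with Python 3.11.15 and figures drawn with matplotlib 3.10.9. The settings varied were the pseudocount (1 or 64), the normalization (quantile, or centred array medians), the filter (none), averaging all probe sets per gene, no suffixed probe sets, no trend, a replicate block and leaving out each array.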

Additional observations from a re-analysis of the deposited data

How the results depend on the processing

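Of the 10 genes, all read lower under every alternative in which they could be measured, except Tagln2, which turned to 0.24 when its probe sets were averaged, the dim reversed one included. The median log2 difference of the 10 was -1.39 with averaged probe sets, -1.55 for the 7 genes with a probe set free of an s, x or a suffix, -2.06 after centring and -1.94 to -1.83 when each array was left out. Acta2 gave -1.08 on averaging and -0.54 without suffixed probe sets, where probe sets near the unused spikes take part or stand alone.

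Calls depend on the variance model. Without a trend of variance with signal, limma called 0 genes higher and 0 lower (smallest adjusted p 0.0999, unadjusted p under 0.05 in 2332 genes, and in 2966 with the trend), and 0 of the genes of the 5 muscle, SRF and regulator lists. Centring each array on its median, which moved the median of all tested genes from 0.04 to -0.13, gave 294 genes higher and 1243 lower, and averaging probe sets 305 and 306. Without WT replicate 1 or 2, 408 or 391 genes were lower, against 700, and leaving out an array gave 391 to 740 lower. Of the 5 lists, 20 genes fell and 2 rose. The 2 rises became 1 after centring, with no filter, with averaged probe sets and without each array in turn.

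Samples with the same replicate number did not deviate together (correlation 0.02 across genes, with 2 pairs), so the number is only a name. With it as a replicate block the counts were 1016 genes higher and 1082 lower, and 4 list genes higher, and Actb (0.12, limma adjusted p = 0.0217) and Mrtfa (-0.50, adjusted p = 0.0291) passed.

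Some genes without a call changed sign. Actb was -0.052 under quantile normalization, -0.045 after centring and -0.019 without suffixed probe sets, Tpm3 0.18 with averaged probe sets, Mrtfb 0.0021 under quantile normalization and Myl3 -0.12 after centring. Leaving out each array gave -0.16 to 0.068 for Mrtfb, -0.56 to 0.12 for Tagln3, -0.70 to 0.028 for Dab2 and -0.27 to 0.37 for Myl3.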
